A study of Mus musculus with 4 samples.

Results

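The report covers 10 genes of the integrated stress response and of serine synthesis, namely Atf4, Ddit3, Asns, Trib3, Chac1, Sesn2, Psat1, Phgdh, Shmt2 and Mthfd2, in single cells of mouse bone marrow. They were chosen by symbol from the 27998 features counted in each library, and all 10 were found, each as 1 feature. The rule uses no measured value, although the genes were chosen with earlier results of these data known. Wild-type marrow (Idh1-WT) was set beside marrow heterozygous for Idh1-R132H, a change in the active site of cytosolic isocitrate dehydrogenase that makes the enzyme produce D-2-hydroxyglutarate. In the study, tamoxifen was injected over 5 days to recombine the EYFP reporter, together with the heterozygous Idh1-R132H allele in the mutant group. Lineage-negative EYFP+ marrow was sorted 2 weeks later and given to irradiated recipients without carrier marrow, and the chimeric marrow was taken 16 weeks after transfer. From each recipient, 4000 EYFP+ cells of each of 3 gates were sorted into 1 tube: CD45.1+ total marrow, the lineage-negative Sca1+ cKit+ gate (LSK) and the lineage-negative cKit+ gate (LK). Each tube gave 1 droplet library of 3′ ends, with 2 libraries per group. The labels do not say whether the recipients of a group received marrow from separate donors, so the p-values measure the spread between these libraries. The counts do not carry the mutated base, and the genotype rests on the labels.

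The integrated stress response starts when any of 4 kinases that sense amino acid shortage, misfolded protein, haem shortage or viral RNA phosphorylates the initiation factor eIF2alpha. General translation then drops while ATF4 protein is made from its mRNA, and ATF4 with its partner CHOP (Ddit3) switches on genes for amino acid supply. Serine made from a glycolytic intermediate by PHGDH and PSAT1 feeds the mitochondrial folate enzymes SHMT2 and MTHFD2, which supply carbon units for nucleotide synthesis. Because ATF4 is controlled largely at translation, the Atf4 mRNA level is not a readout of ATF4 protein.

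ATF4 and its C/EBP partners bind composite elements whose core was searched here as TGATGNAA, or TTNCATCA on the other strand, in the RefSeq promoter windows of GRCm38.p6. All 10 genes had a window, Psat1 had a second start site, and 3 genes held a match. Those 3 stretches are shown, 5′ to 3′ on the gene's strand, because these genes are ATF4 targets that differed widely between the marrow classes; capitals mark the match.
Asns, chr6:7693210-7693269, minus strand: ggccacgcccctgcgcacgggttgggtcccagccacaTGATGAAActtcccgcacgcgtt
Chac1, chr2:119351018-119351077, plus strand: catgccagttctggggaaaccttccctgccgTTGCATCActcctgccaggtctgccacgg
Trib3, chr2:152344031-152344060, minus strand: agattagctcaggtTTACATCAgccgggcg
The Asns match starts 23 bases before the RefSeq start site and the Chac1 match 193 bases before it, while the Trib3 match starts at base 15 of the RefSeq transcript. The GENCODE genes given below start elsewhere, at chr6:7693254 for Asns and chr2:152344032 for Trib3. By those starts the Asns match lies inside the gene and the Trib3 match before it. The other 7 genes had no match in these windows. The windows span only 250 bases before the start site and 50 after, so elements further away were not searched. Of 32851 promoters in the table, 1304 (3.97%) held the same letters, so a match in itself is a description of the sequence and not of binding.

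The libraries held 56353466 (Idh1-WT 1), 40364701 (Idh1-WT 2), 47025425 (Idh1-R132H 1) and 53387528 (Idh1-R132H 2) unique molecular identifiers (UMIs), and 4503, 3505, 3842 and 4430 barcodes passed the filters on UMIs, genes and mitochondrial share. Idh1-WT 1 and Idh1-R132H 1 shared 345 of these barcodes, against 13 to 33 for the other pairs. Of the barcodes of Idh1-WT 1, 327 had a median of 577 UMIs there and 27151 UMIs in Idh1-R132H 1. Cells whose barcode another library held with at least 10 times the UMIs were therefore removed: 329 from Idh1-WT 1, 0 from Idh1-WT 2 and 4 from each Idh1-R132H library. After removal of likely doublets 4035, 3407, 3720 and 4269 cells were analysed. A Xist UMI and no Y-linked UMI were found in 71.3, 42.9, 55.8 and 39.6% of stem-like cells in these 4 libraries. GMP-like (granulocyte-monocyte progenitor) cells had 76.6, 59.3, 52.9 and 41.6%, and T/NK-like cells 52.7, 42.3, 49.1 and 60.6%. A Y-linked UMI was found in 8.7, 23.7, 24.4 and 32.2% of stem-like and 10.1, 24.6, 39.5 and 47.6% of GMP-like cells. Idh1-WT 1 also stood apart in stem-like and GMP-like cells. In every class of cells described below, both Idh1-WT libraries had lower Y-linked shares than both Idh1-R132H libraries. Both also had higher Xist shares, except in stem-like, erythroid-like, megakaryocyte-like, neutrophil-like and T/NK-like cells. In monocyte-progenitor-like cells, for example, the Xist shares were 80.9 and 56.6% against 53.6 and 35.2%. This mix therefore ran with genotype in most of the comparisons below. The sex of donors and recipients is not given in the sources used here.

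Cells were clustered without the 10 genes and without the pathway lists used below, and clusters were named from marker genes. This gave 16 classes. Those with a name are called stem-like (stem and multipotent progenitors), lymphoid-primed-like, GMP-like (granulocyte-monocyte progenitors), monocyte-progenitor-like, neutrophil-precursor-like, neutrophil-like, monocyte-like, dendritic-like, erythroid-like, megakaryocyte-like, basophil-like (with mast cells), B-precursor-like, B-like and T/NK-like. A cluster led by Cpa3 and Ccl9 and a cluster led by Dntt and Fam64a had no leading markers of their own class and are called the Cpa3 cluster and the Dntt cluster. The share of cells that their own markers put in the same class ranged from 51.0% (monocyte-progenitor-like) to 100% (B-precursor-like). The monocyte-progenitor-like cluster scored highest on GMP markers (1.53). It was named by its second score (1.36), because more of those markers were among its 10 leading genes. A cluster of 115 monocyte-like cells led by Gngt2 scored highest on macrophage markers (3.21) and was likewise named by its second score (2.57). Levels are CPM, a gene's UMIs summed over a class in a library and scaled to the class's total UMIs there. Since only 3′ ends were counted, levels are compared for the same gene between classes and not between genes. Values in a series of 4 follow the order Idh1-WT 1, Idh1-WT 2, Idh1-R132H 1, Idh1-R132H 2. Fewer cells of a subtype and less RNA per cell cannot be told apart in such sums. The classes come from the same cells, so differences between them are described by whether the ranges of the 4 libraries overlap, with no test.

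**Figure D1:**
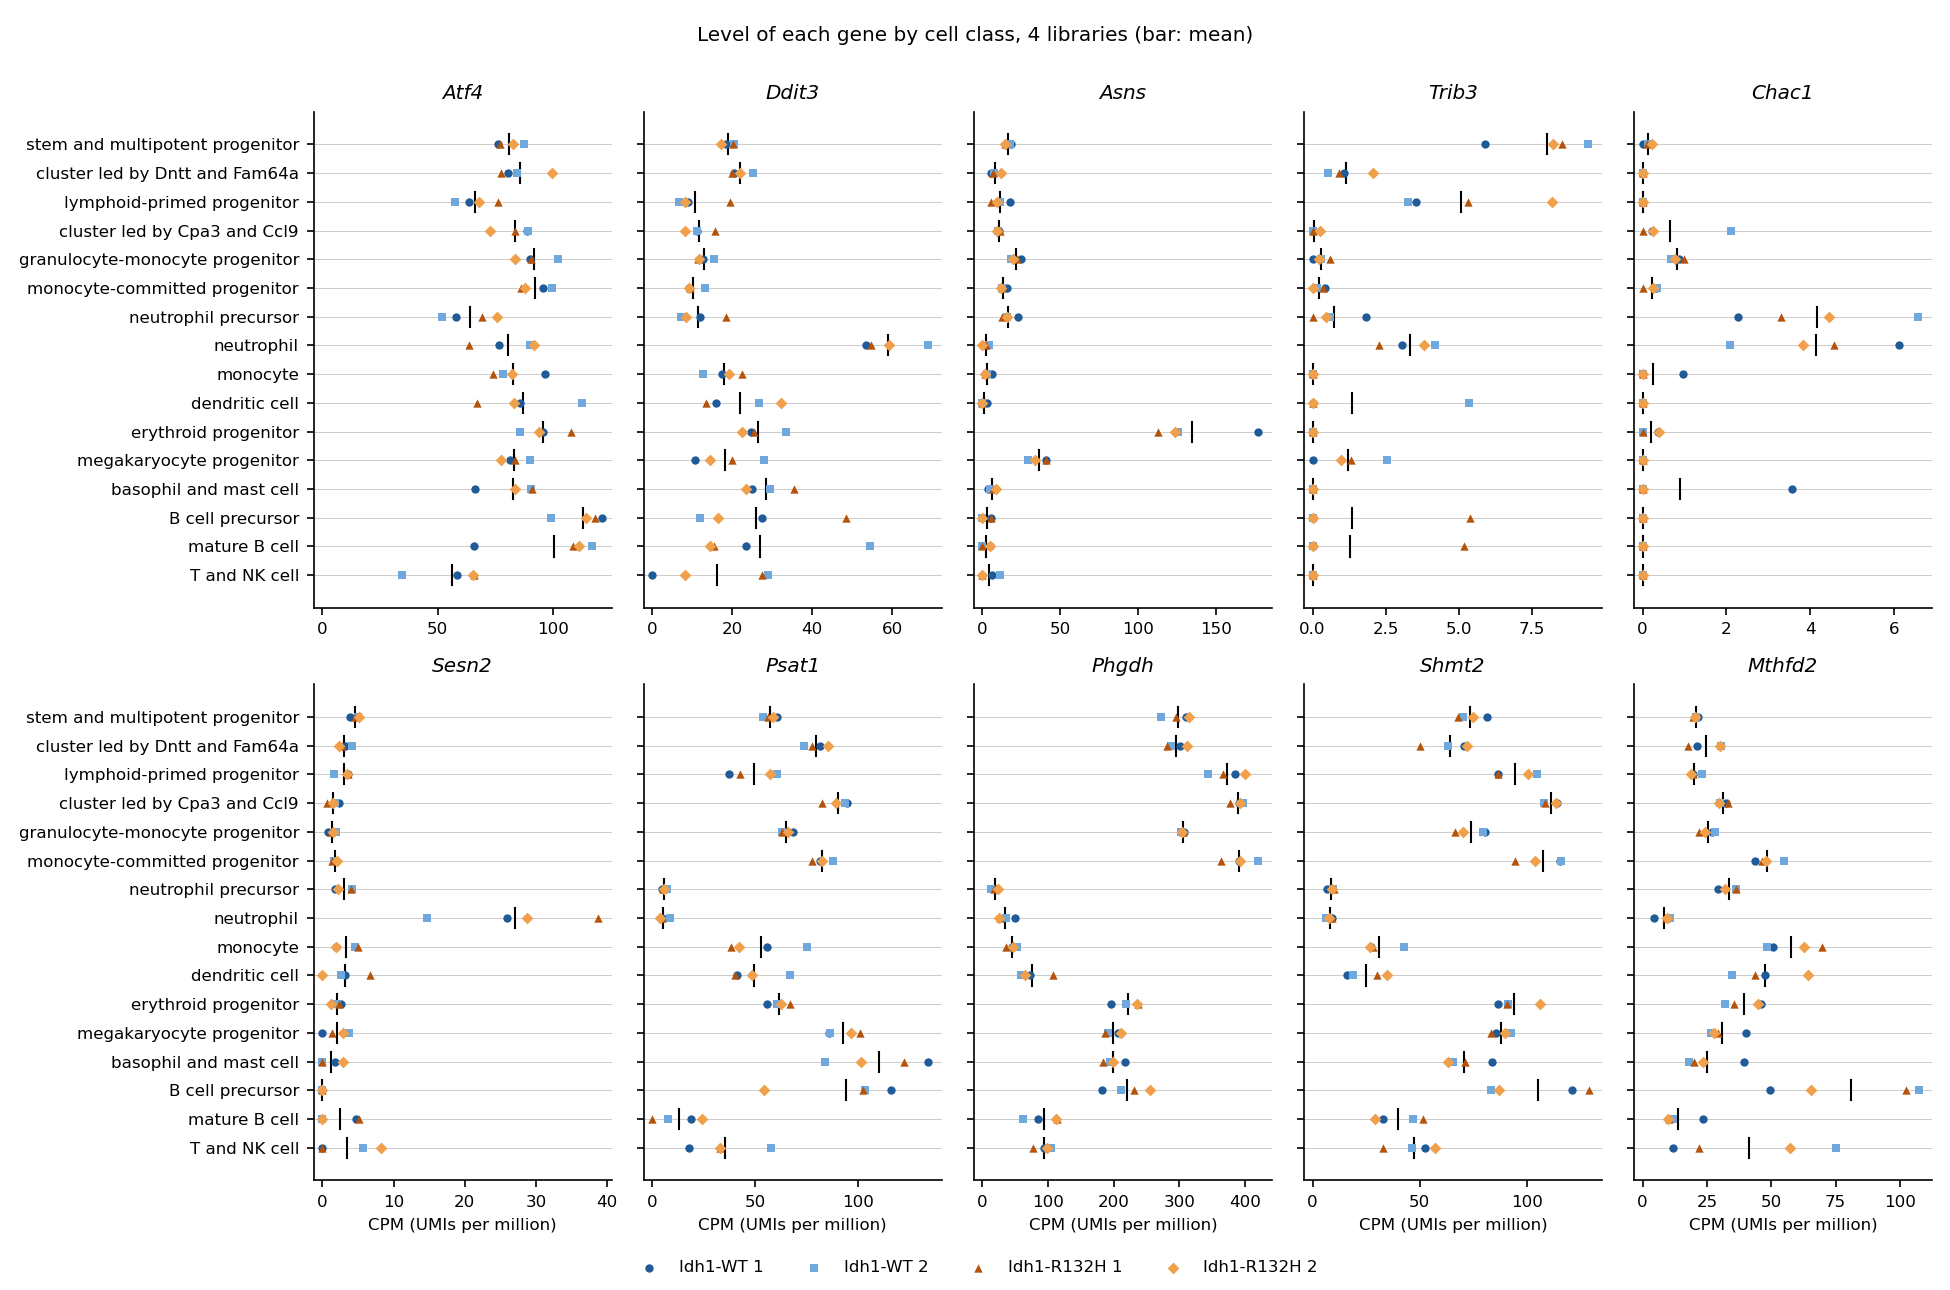
Level of the 10 genes (CPM, linear axes that differ between panels) in 16 marrow classes; each symbol is 1 of 4 libraries and the bar is their mean. Ddit3 and Sesn2 were highest in neutrophil-like cells, Asns in erythroid-like cells and Trib3 in stem-like cells, while Phgdh and Shmt2 were high in progenitors and low in neutrophil-like cells.

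Atf4, the transcription factor at the centre of the response, was the most evenly spread of the 10 genes (chr15:80255184-80257541, plus strand; gene positions here and below are GENCODE genes on GRCm38). Its mean level ranged from 56 CPM in T/NK-like cells to 113 CPM in B-precursor-like cells, a 2.02-fold span. The B-precursor-like values of 121, 99.3, 118 and 114 CPM overlapped those of B-like cells, and each of the next steps down the order overlapped as well. Neutrophil-precursor-like cells were near the bottom, at 58.1, 52.0, 69.3 and 75.9 CPM.

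Ddit3 encodes CHOP, the partner of ATF4 in prolonged stress (chr10:127290774-127296288, plus strand). It reached 53.5, 69.0, 54.6 and 59.3 CPM in neutrophil-like cells, a mean of 59.1 ± 7.06 CPM (SD, n = 4) from 123 UMIs. The next class, basophil-like cells, had 25.0, 29.4, 35.5 and 23.5 CPM, so the neutrophil-like mean was 2.09-fold higher and the ranges did not overlap. In 14 of the other classes all 4 libraries lay below the neutrophil-like range, the exception being B-like cells, where Idh1-WT 2 had 54.5 CPM. The lowest mean was 10.2 CPM in monocyte-progenitor-like cells. Neutrophil-like cells thus had a high Ddit3 level with an Atf4 level of 80.5 ± 13.1 CPM (SD, n = 4), close to the 83.3 CPM that was the median over classes.

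Asns makes asparagine from aspartate and is a long-known ATF4 target (chr6:7675169-7693254, minus strand). Erythroid-like cells held it at 177, 126, 113 and 124 CPM, a mean of 134.8 ± 28.9 CPM (SD, n = 4). Idh1-WT 1 was the high library. Megakaryocyte-like cells followed at 36.2 CPM, a 3.72-fold step without overlap, and then GMP-like cells at 21.3 CPM, again without overlap. The lowest mean was 0.794 CPM in dendritic-like cells, where 3 of the 4 libraries had no UMI.

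Trib3 is a pseudokinase that binds AKT and ATF4 and that ATF4 and CHOP induce (chr2:152337422-152344032, minus strand). It was found mainly in stem-like cells, at 5.88, 9.43, 8.53 and 8.21 CPM, and 280 of its 348 UMIs in all cells came from that class. They lay in 252 cells, with at most 4 UMIs in a cell. Lymphoid-primed-like cells had 3.54, 3.28, 5.31 and 8.17 CPM, a range that overlapped the stem-like range, and neutrophil-like cells had 3.34 CPM. Erythroid-like cells had 0 UMIs, which allows up to 0.341 CPM, and monocyte-like cells had 0 UMIs, which allows up to 0.607 CPM. Such limits rest on 3 counts over the 4 libraries of a class and cover counting error only.

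Chac1, which degrades glutathione and is induced by ATF4 and CHOP, was the rarest, with 92 UMIs in all cells (chr2:119351229-119354381, plus strand). Of these, 31 came from neutrophil-precursor-like cells, at 2.29, 6.57, 3.30 and 4.44 CPM. Neutrophil-like cells had 6.11, 2.09, 4.55 and 3.83 CPM from 9 UMIs, so the order of both classes is not resolved. No UMI was found in 7 classes, among them the Dntt cluster, where the limit was 0.243 CPM.

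Sesn2, a leucine sensor that restrains mTORC1 and responds to both ATF4 and p53 (chr4:132492032-132510501, minus strand), shared its highest class with Ddit3 but not the order below it (Spearman's rho 0.21 over 15 classes). Neutrophil-like cells had 26.0, 14.6, 38.7 and 28.7 CPM, a mean of 27.0 ± 9.90 CPM (SD, n = 4) from 56 UMIs in 56 cells. The stem-like class was next at 4.66 ± 0.602 CPM (SD, n = 4), a 5.80-fold step without overlap. No class other than neutrophil-like cells had a library above 10 CPM.

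Several measures moved with these neutrophil-like values. The sum of 12 genes that cell handling induces, such as Fos, Junb and Dusp1, was 5430 ± 431 CPM (SD, n = 4) in neutrophil-like cells, 1115 ± 88.0 CPM in neutrophil-precursor-like cells and 1526 ± 274 CPM in stem-like cells. Neutrophil-like cells were also the shallowest class, with medians of 1553 to 1623 UMIs per cell, whereas GMP-like cells had medians of 19895 to 23455. Free RNA in the droplets was given the gene profile of barcodes of at most 50 UMIs. Its amount per cell, 155 to 166 UMIs over the libraries, took all S100a8 and S100a9 UMIs of B-like cells as free RNA. The same amount was assumed for cells of every class. By this estimate free RNA would give 2.51 CPM of Ddit3 and 0.291 CPM of Sesn2 in the neutrophil-like class, far below the values found. With the shared barcodes kept, the means were 45.5 CPM for Ddit3 and 22.5 CPM for Sesn2, and both genes were again highest in neutrophil-like cells. The part of handling and depth in the levels was not tested.

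Phgdh, the enzyme of the committed step of serine synthesis (chr3:98313170-98339990, minus strand), gave the most UMIs of the 10 genes, 47671 in all cells. It was high in progenitors of several lineages. Monocyte-progenitor-like cells had 390.0, 420.4, 363 and 392 CPM, the Cpa3 cluster had 391, 397, 376 and 392 CPM, and lymphoid-primed-like cells had 384, 343, 366 and 399 CPM. These 3 classes overlapped, and all 3 lay above GMP-like cells at 305 ± 1.76 CPM (SD, n = 4). Monocyte-like cells had 45.2 ± 6.45 CPM and neutrophil-precursor-like cells 18.7 ± 4.73 CPM (SD, n = 4 each), so that the highest and lowest class means differed 20.9-fold. Of the 34.2 CPM found in neutrophil-like cells, free RNA would give 27.3 CPM, and a mean of 8.6 CPM, from 0 to 25.2 CPM over the libraries, remained after subtraction with no value below 0, so expression in that class was hardly resolved.

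Psat1 carries out the transamination after PHGDH (chr19:15904678-15947337, minus strand). Its level was highest in basophil-like cells, at 134, 83.8, 122 and 101 CPM, and these overlapped the next classes, B-precursor-like (93.9 CPM), megakaryocyte-like (92.3 CPM) and the Cpa3 cluster (89.9 CPM). Neutrophil-like cells were lowest at 5.33 CPM, against 5.74 CPM that free RNA alone would give. By this estimate of free RNA, Psat1 was therefore not distinguishable from background there.

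Shmt2 splits serine into glycine and a folate-bound carbon unit in mitochondria (chr10:127517123-127522444, minus strand). The Cpa3 cluster had 114, 108, 109 and 114 CPM and monocyte-progenitor-like cells had 116, 116, 94.8 and 104 CPM, overlapping ranges at the top of the order. Neutrophil-like cells had 8.05 CPM, against 7.93 CPM from free RNA.

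Mthfd2, the next mitochondrial folate enzyme (chr6:83305691-83325908, minus strand), was spread differently from the other serine genes. The B-precursor-like class led with 49.6, 107, 102 and 65.3 CPM, wide values from 16 to 31 cells per library. Monocyte-like cells had 50.6, 48.4, 69.6 and 62.6 CPM, while stem-like cells had only 20.6 ± 0.821 CPM (SD, n = 4). Compared with stem-like cells, monocyte-like cells thus held less Phgdh and more Mthfd2, both without overlap. The lowest level was 8.43 CPM in neutrophil-like cells.

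The gene pairs in the serine pathway differed in how closely they ran together over the 15 classes with enough cells. Between Phgdh and Shmt2, Pearson's r of log2(CPM + 1) was 0.94 and Spearman's rho 0.91. For Psat1 with Shmt2, r was 0.87, whereas for Phgdh with Mthfd2 r was 0.05. Psat1 ran with the summed level of 15 proliferation genes (r = 0.75), as did Mthfd2 (r = 0.65), and Sesn2 ran against it (r = -0.76). Atf4 had r of 0.29 with Ddit3, 0.12 with Asns and -0.21 with Sesn2. These are correlations over classes that share libraries, and they are given as description only. Among 4676 genes with a mean of at least 20 CPM, the 5 most like Phgdh in pattern over these classes were Mif (r = 0.98), Cd320, Shmt1, Pebp1 and Tfap4 (r = 0.97 each). For Atf4 they were Stk11 (r = 0.91), Pdcd2l (r = 0.79), Ubl5, Btk and Nrbf2 (r = 0.77 each).

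A finer clustering, at resolution 2, separated the neutrophil and monocyte classes into clusters that are named here by leading genes. The order in which they are listed follows known marker genes and was not measured, and 2 further GMP-like clusters, led by Fkbp11 (599 cells) and by Rpgrip1 (274 cells), stand outside it. From the cluster led by Vcam1 and Mgl2 (GMP-like) through those led by Chil3, Ly6g and Retnlg to the Il1b cluster, mean Ddit3 was 13.6, 9.25, 15.3, 38.0 and 89.7 CPM. Mean Sesn2 was 1.05, 0.427, 7.24, 17.8 and 40.3 CPM over the same clusters. Both genes were thus concentrated in the cluster led by Il1b, where Ddit3 was 84.4, 131, 72.5 and 71.0 CPM from 75 UMIs. The summed handling genes were lowest in the Vcam1 cluster and stood at 775, 1681, 3653 and 8002 CPM in the other 4. The part of handling in these values was not tested. Chac1 was highest in 2 separate places, 5.61 CPM from 26 UMIs in the Chil3 cluster and 8.27 CPM from 7 UMIs in the Il1b cluster, with 1.86 and 1.21 CPM in between.

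Phgdh was low in all of the later neutrophil clusters. It was 271 ± 3.58 CPM (SD, n = 4) in the Vcam1 cluster, 349 CPM in the Fkbp11 cluster, whose leading genes include the granule genes Elane, Mpo and Ctsg, and 17.4 ± 4.19 CPM in the Chil3 cluster. Mthfd2 went the other way, at 21.0 ± 2.06 CPM in the Vcam1 cluster, 31.0 CPM in the Fkbp11 cluster and 47.4 ± 7.09 CPM in the Chil3 cluster, with no overlap between the 3, and was 10.7 CPM in the Ly6g cluster. The summed proliferation genes were 2041, 2671 and 242 CPM in the Vcam1, Chil3 and Ly6g clusters. In the monocyte lineage, from the Irf8 cluster through the Fn1 and Clec4a3 clusters to the Gngt2 cluster, Phgdh was 382, 69.9, 20.6 and 29.5 CPM. Psat1, at 80.8, 81.7, 25.3 and 5.55 CPM, was near level over the Irf8 and Fn1 clusters. Mthfd2 was at 48.4, 78.6, 36.3 and 48.7 CPM, so its highest value fell in the Fn1 cluster, which also had the highest summed proliferation genes of the 4, 3746 CPM. Ddit3 was 54.9 ± 13 CPM (SD, n = 4) in the Gngt2 cluster, against 17.9 ± 2.92 CPM in the Clec4a3 cluster, although the former rests on 17 UMIs from 113 cells.

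**Figure D2:**
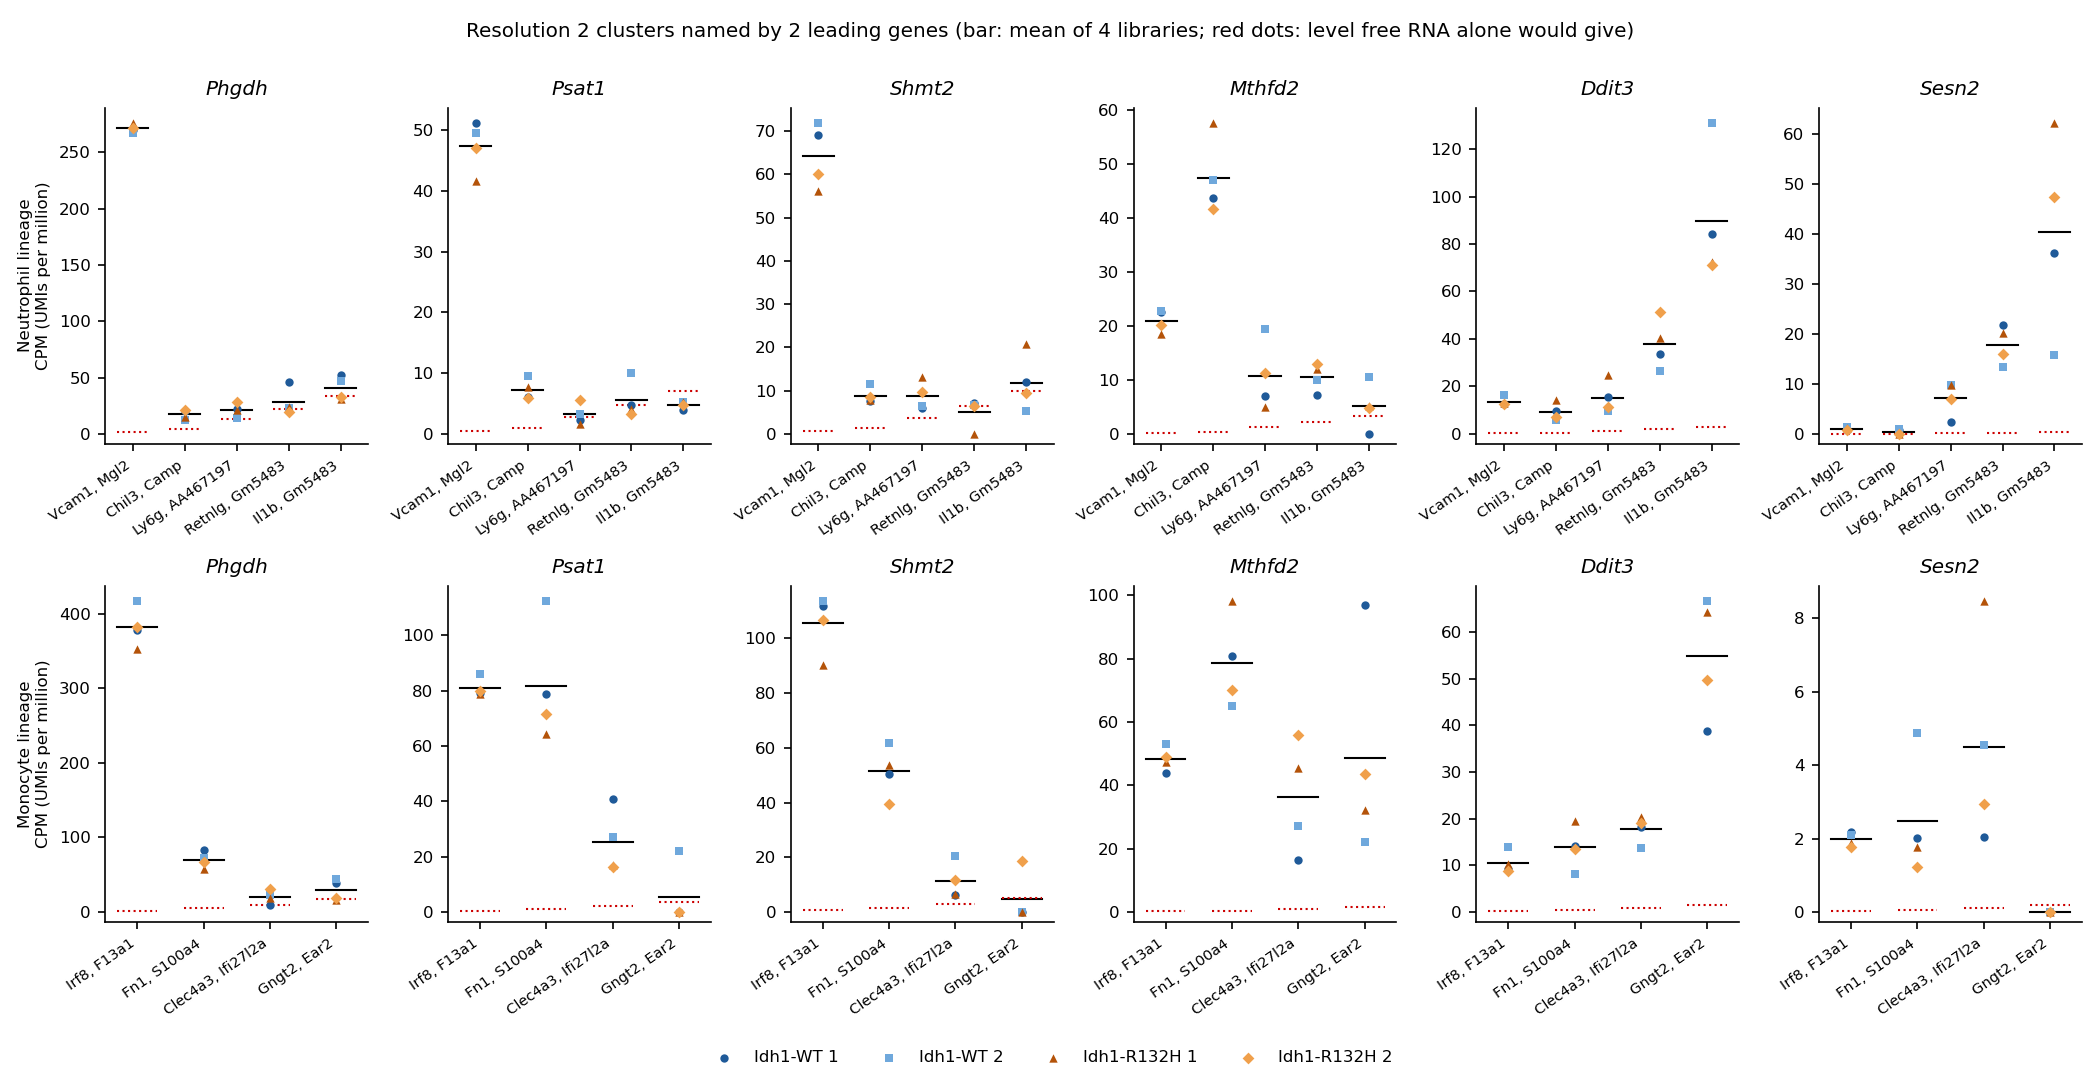
Levels of 6 genes (CPM, linear axes) in resolution 2 clusters of the neutrophil lineage (upper row) and monocyte lineage (lower row), each named by 2 leading genes; symbols are the 4 libraries, bars their mean and red dotted lines the level that free RNA alone would give; the Fkbp11 and Rpgrip1 clusters are not drawn. Phgdh is at 271 CPM in the Vcam1 cluster and 17.4 CPM in the Chil3 cluster, while Mthfd2 is higher in the latter, and Ddit3 and Sesn2 are highest in the Il1b cluster.

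The erythroid-like class also split in 2 at that resolution, a cluster of 471 cells led by Car1 and a cluster of 123 cells led by Hba-a1, the alpha-globin gene of later erythroid cells. Asns was 60.0 ± 6.96 CPM in the former and 242 ± 38.9 CPM in the latter (SD, n = 4 each), and the ranges did not overlap. Mthfd2 was 24.6 ± 9.50 and 63.7 ± 3.87 CPM, likewise without overlap. Phgdh went the other way, at 244 ± 14.6 and 191 ± 18.3 CPM, and Psat1 was near level at 60.1 and 63.4 CPM. Asns and Mthfd2 were thus higher in the globin-rich cluster, and Phgdh was lower.

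Within the stem-like class, the first clustering gave 4 larger clusters. Trib3 was highest in the cluster of 1278 cells led by Sult1a1 and Mycn, whose leading genes include the stem cell markers Mllt3 and Procr, at 16.1, 18, 23.5 and 23.5 CPM. It was 5.34 CPM in the Myl10 cluster, 9.88 CPM in the Slc39a1 cluster and 1.00 CPM in the Ptn cluster, and the range of the Sult1a1 cluster lay above all 3. Ppp1r15a, the phosphatase subunit that reverses eIF2alpha phosphorylation, was ordered much the same, at 102 ± 14.1, 61.4 ± 1.71, 59.7 ± 17.8 and 28.2 ± 3.93 CPM (SD, n = 4 each). Phgdh was lowest in the Sult1a1 cluster and highest in the Ptn cluster, at 217, 301, 326 and 350.1 CPM, as was Mthfd2, at 8.54, 12.1, 14.5 and 45.6 CPM. Mki67, a marker of cycling cells, was 8.25, 9.02, 28.3 and 102 CPM in these clusters, and the handling genes summed to 2005, 1608, 1516 and 953 CPM. The parts of proliferation and handling in these levels were not tested.

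**Figure D3:**
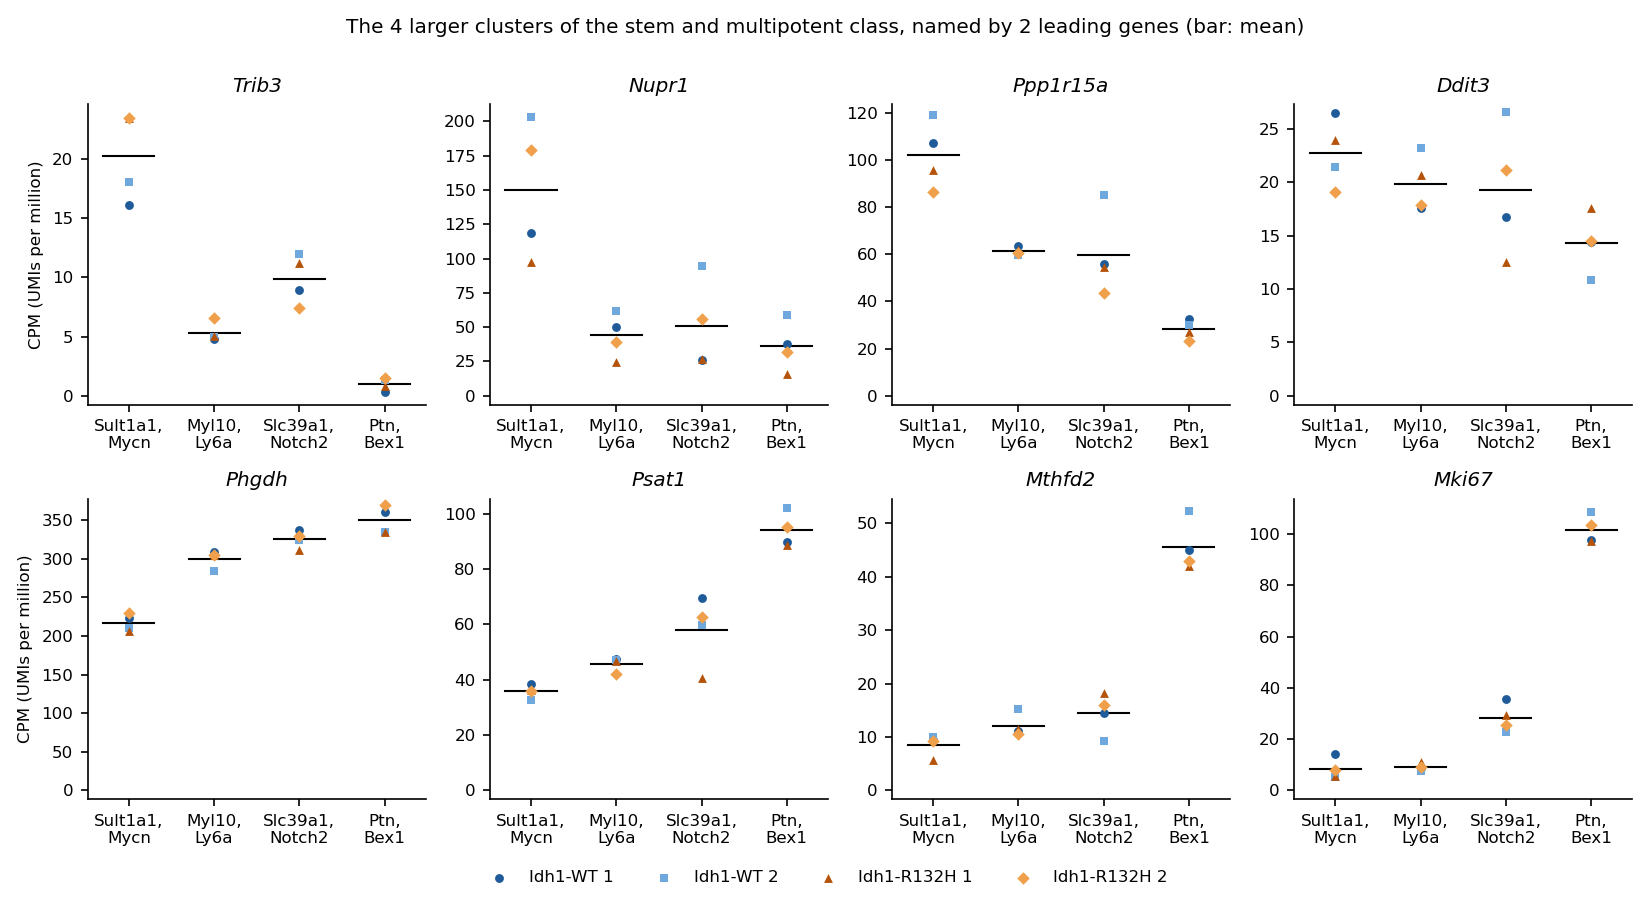
Levels (CPM, linear axes) of 4 stress response genes in the upper row, and of 3 serine genes and Mki67 in the lower row, in the 4 larger clusters of the stem-like class; symbols are the 4 libraries and bars their mean. Trib3 and Ppp1r15a are highest in the Sult1a1 cluster, and Phgdh, Psat1 and Mthfd2 are highest in the Ptn cluster.

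The genotypes were compared in the 15 classes that held 20 or more cells of each library, by edgeR's quasi-likelihood test on summed counts, with a call at a Benjamini-Hochberg adjusted p below 0.05 over all genes tested. None of the 10 genes passed in any class. Of 91 tests of a gene in a class 0 passed, 40 had a higher and 51 a lower fitted level in Idh1-R132H, and the median log2 difference was -0.02. Over all genes tested in a class, edgeR called 0.74% in GMP-like, 0.494% in neutrophil-like, 0.424% in neutrophil-precursor-like, 0.402% in monocyte-like and 0.224% in monocyte-progenitor-like cells. It called 0.157% in the Cpa3 cluster, 0.119% in megakaryocyte-like, 0.101% in dendritic-like, 0.0728% in lymphoid-primed-like, 0.0608% in stem-like and 0.0482% in erythroid-like cells, 0.0406% in the Dntt cluster and 0.0% in basophil-like, B-like and T/NK-like cells. An unadjusted p below 0.05 was found for 10 of the 91 tests (11%), against 6.66% of 102324 tests over all genes. DESeq2 called 0 of 101 tests, which include all cells summed; it gave no adjusted p for 8 of them. Of the genes to which it gave one, DESeq2 called 2.25% in GMP-like, 0.216% in neutrophil-like, 0.175% in monocyte-progenitor-like, 0.0908% in neutrophil-precursor-like, 0.0862% in monocyte-like, 0.0434% in stem-like and 0.0121% in erythroid-like cells. It called 0.0105% in the Cpa3 cluster, 0.0101% in the Dntt cluster and 0.0% in the other 6 classes. A count of 0 of 91 is near these backgrounds, all but 1 of which lie under 1%.

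In all cells of a library summed, 0 of the 10 genes passed, where 0.272% of all genes did, and 0 had an unadjusted p below 0.05. DESeq2 also called 0 of them, where it called 0.27% of all genes. The log2 difference was -0.06 for Atf4, with a 95% interval from -0.17 to 0.05, and 0.01 for Phgdh, from -0.09 to 0.11. Intervals were wider for the rare genes, from -0.32 to 0.63 for Trib3 and from -1.16 to 0.39 for Chac1. Asns had the lowest value of the abundant genes, -0.29 (SE 0.14, edgeR adjusted p = 0.693). Without Idh1-WT 2 it was -0.47 with an adjusted p of 0.00304, and without Idh1-WT 1 it was -0.07. A test of whether the genotype difference varied between classes called 0 of the 9 members it could test, against 0.274% of all genes.

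**Figure D4:**
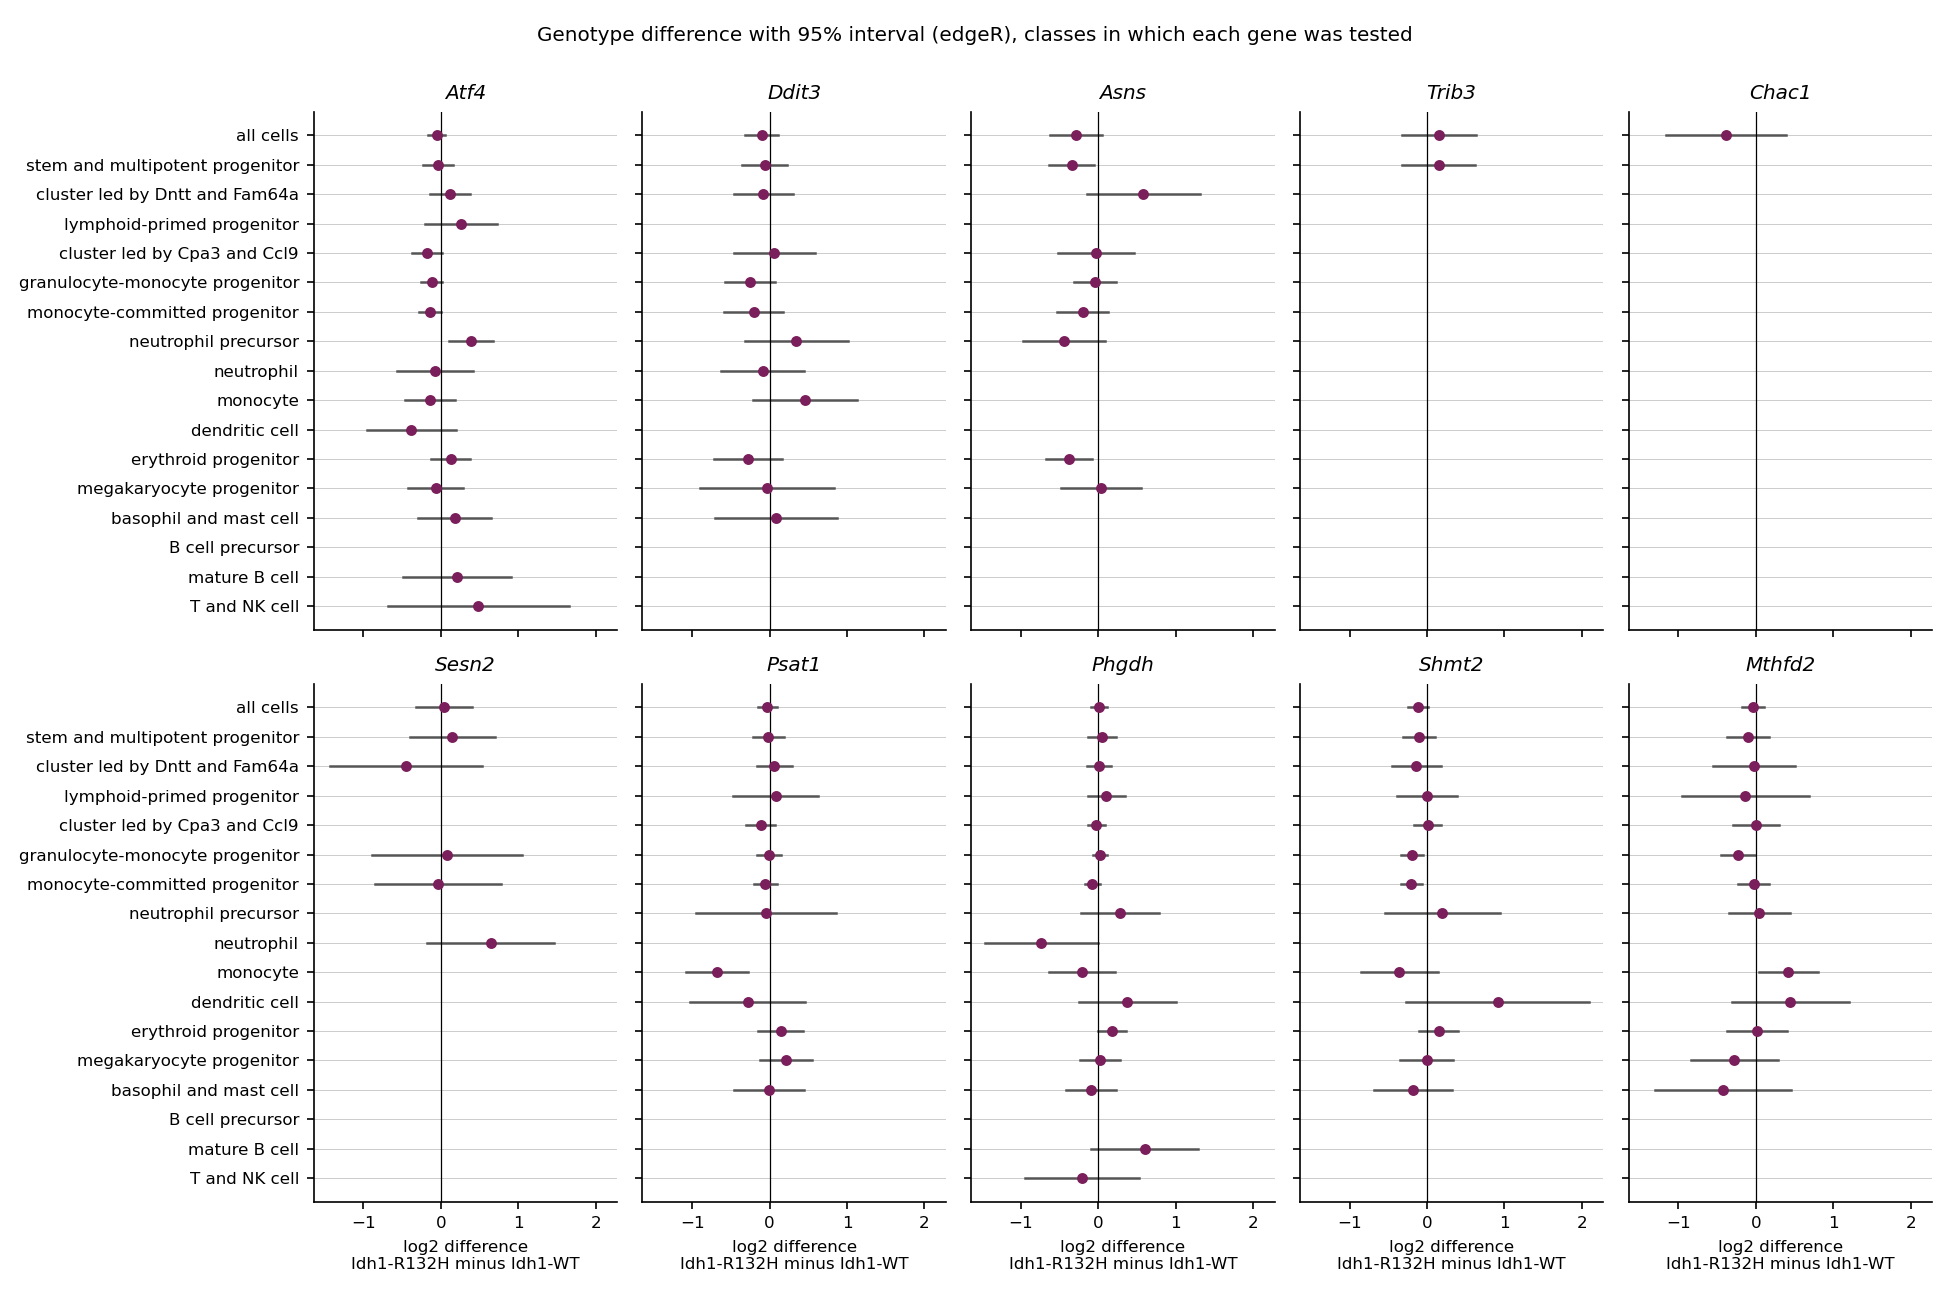
Log2 difference between Idh1-R132H and Idh1-WT with its 95% interval (edgeR) for each gene in each class in which it was tested, with all cells summed in the top row. In the classes, 10 of 91 intervals lie to 1 side of 0, and intervals are narrowest for Phgdh in the classes with many cells, such as GMP-like cells.

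The 10 pairs of gene and class with an unadjusted p below 0.05 are described here by their values, since none was called. Psat1 had the smallest p. In monocyte-like cells it was at 55.5 and 74.9 CPM in Idh1-WT and at 38.1 and 42.1 CPM in Idh1-R132H, groups that did not overlap. The log2 difference was -0.68 (SE 0.20, edgeR adjusted p = 0.141). Without Idh1-WT 1 it was -0.88 with an adjusted p of 0.0403, and without Idh1-WT 2 it was -0.43 with an adjusted p of 0.960. With cells classed singly by their own markers it was -0.41. In monocyte-like cells Mthfd2 lay on the other side, at 50.6 and 48.4 against 69.6 and 62.6 CPM, a log2 difference of 0.42 (SE 0.19, adjusted p = 0.671), or 0.76 with cells classed singly. Phgdh (-0.21) and Shmt2 (-0.36) were also lower in that class, so of the 4 serine genes 3 had a lower fitted level and Mthfd2 a higher one.

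Shmt2 was slightly lower in both myeloid progenitor classes. In monocyte-progenitor-like cells it was at 116 and 116 CPM in Idh1-WT and at 94.8 and 104 CPM in Idh1-R132H, a log2 difference of -0.20 (SE 0.07, edgeR adjusted p = 0.349), or -0.13 without Idh1-R132H 1. GMP-like cells had 80.3 and 79.4 against 66.7 and 70.4 CPM, again -0.20 (SE 0.07, adjusted p = 0.239). In monocyte-progenitor-like cells all 8 tested members had a lower fitted level, with a median of -0.11. Over all genes tested in that class, 4843 of 10246 were lower and the median was 0.01. The lean was not particular to the members. Lower there were 7 of 7 p53 targets, 13 of 17 genes of the other arms of the unfolded protein response and 14 of 20 aminoacyl-tRNA synthetases. Of the proliferation genes, 7 of 15 were lower. Mthfd2 was also lower in GMP-like cells, at 27.0 and 28.1 against 21.7 and 24.3 CPM (log2 difference -0.23, adjusted p = 0.445), with -0.15 without Idh1-R132H 1 and -0.09 with cells classed singly.

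In erythroid-like cells the Asns difference turned on 1 library. Its values were 177 and 126 CPM in Idh1-WT and 113 and 124 CPM in Idh1-R132H, a log2 difference of -0.38 (SE 0.14, edgeR adjusted p = 0.896). Without Idh1-WT 2 the difference was -0.60 with an adjusted p of 3.9e-05, without Idh1-WT 1 it was -0.08, and with cells classed singly it was -0.24. The erythroid-like class held 160, 141, 123 and 186 cells of the libraries in order. The Hba-a1 cluster, in which Asns was high, held 45 erythroid-like cells of Idh1-WT 1, against 23, 21 and 34 cells of the other libraries. Within that cluster Asns was at 208 and 211 CPM in Idh1-R132H, against 285 and 266 CPM in Idh1-WT, and within the Car1 cluster at 57.8 and 69.4 CPM, against 60.0 and 52.7 CPM. The part of this mix in the class difference was not tested. In stem-like cells Asns was at 18.6 and 17.8 against 14.4 and 14.6 CPM (log2 difference -0.34, adjusted p = 0.942), with -0.17 at resolution 2 and -0.20 with doublets kept.

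Atf4 mRNA was higher in the Idh1-R132H neutrophil-precursor-like cells, at 69.3 and 75.9 CPM, than in Idh1-WT, at 58.1 and 52.0 CPM, without a call. The log2 difference was 0.39 (SE 0.15, edgeR adjusted p = 0.436). Fos, one of the handling genes, rose in the same class (log2 difference 0.53, adjusted p = 0.00952), a call lost without Idh1-WT 2 (0.29, adjusted p = 0.938); its part in the Atf4 value was not tested. Phgdh made up the last pairs: it was lower in Idh1-R132H neutrophil-like cells (log2 difference -0.73, adjusted p = 0.686), at levels close to free RNA. There it was -0.48 without Idh1-WT 1, -0.43 with at least 1000 UMIs per cell, -0.48 with shared barcodes kept and -0.13 when each cell was classed by its own markers. In erythroid-like cells Phgdh was higher (0.18, adjusted p = 0.999), at 0.11 without Idh1-WT 1 and 0.06 with cells classed singly.

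**Figure D5:**
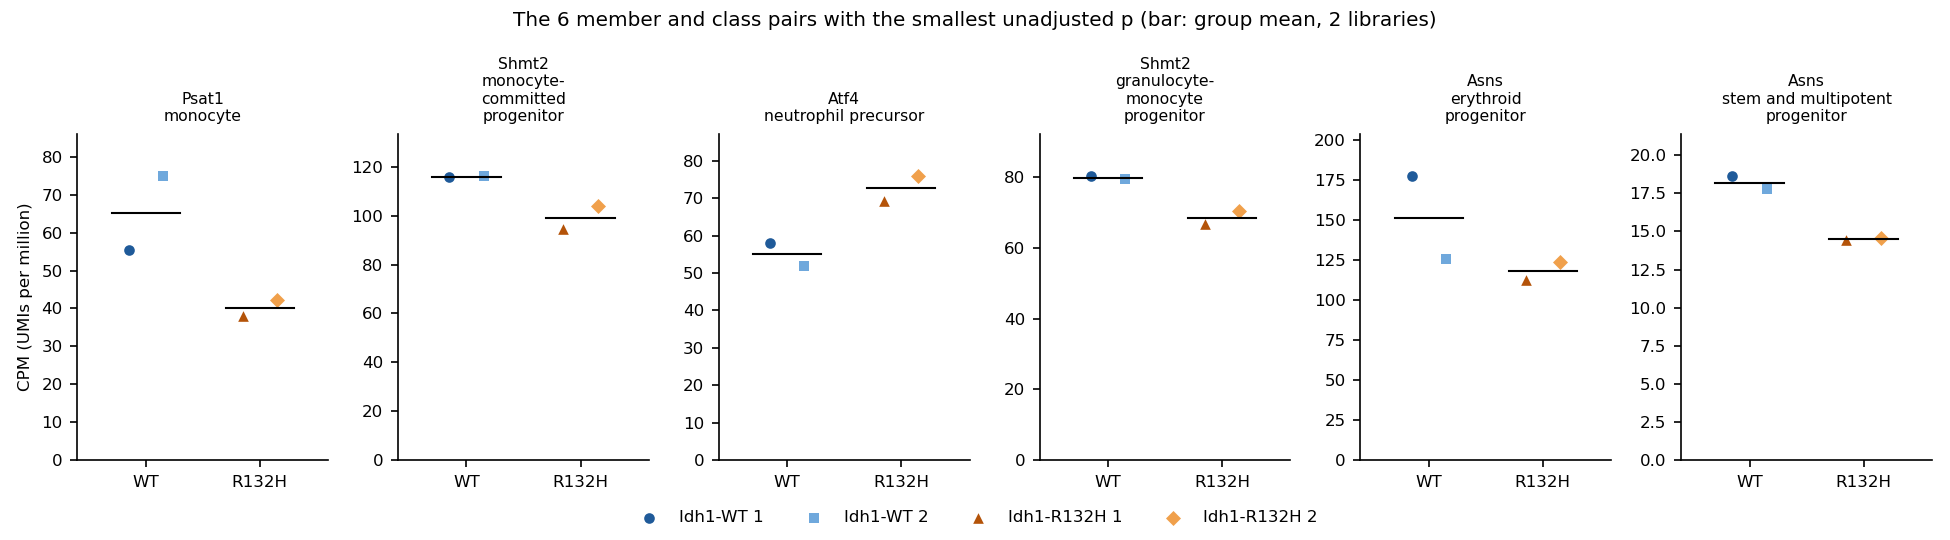
Levels (CPM, axes from 0) of the 6 pairs of gene and class with the smallest unadjusted p; symbols are libraries, bars group means of 2 libraries. The pairs were chosen by their p, so the separation of the groups comes with that choice. None was called (edgeR adjusted p from 0.141 for Psat1 in monocyte-like cells to 0.942 for Asns in stem-like cells).

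The wider pathway gave the same count. Of 12 genes for the eIF2alpha kinases, phosphatases and eIF2B, 0 were called in 124 tests over the classes, with 47 higher and 77 lower. Of 24 other ATF4 target and partner genes, 19 could be tested and 0 were called in 142 tests (77 higher, 65 lower). The 20 cytosolic aminoacyl-tRNA synthetases gave 0 calls in 243 tests (89 higher, 154 lower), and the 17 other serine and one-carbon genes 0 calls in 128 (58 higher, 70 lower). The other arms of the unfolded protein response gave 0 calls in 204 tests, 148 of them lower, and the p53 targets 0 in 69. Over all genes, 52094 of 102324 tests were higher and 50230 lower, with 96 rises and 121 falls called.

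Among the genes of these lists with the smallest p, Nupr1, a stress-induced chromatin protein, was at 43.5 and 67.9 against 28.1 and 25.9 CPM in the Dntt cluster (log2 difference -0.97, edgeR adjusted p = 0.121). Atf5, a close relative of Atf4, was at 8.96 and 10.7 against 6.59 and 5.44 CPM in GMP-like cells (-0.68, adjusted p = 0.109). Herpud1, which helps clear misfolded protein from the endoplasmic reticulum, came nearest to a call, at 77.6 and 91.0 against 68.2 and 57.9 CPM in monocyte-progenitor-like cells (-0.39, adjusted p = 0.0625). Ppp1r15a in the Dntt cluster (-0.46, adjusted p = 0.646), Eif2b2 in lymphoid-primed-like cells (0.90, adjusted p = 0.721) and Sars in neutrophil-precursor-like cells (0.71, adjusted p = 0.320) were further from it. So were Farsb in monocyte-progenitor-like cells (-0.22, adjusted p = 0.450), Tyms in GMP-like cells (-0.16, adjusted p = 0.204) and Gcsh in megakaryocyte-like cells (-0.45, adjusted p = 0.719). Hspa5 in basophil-like cells (-0.66, adjusted p = 0.328), Phlda3 in monocyte-progenitor-like cells (-1.51, adjusted p = 0.334) and Aen in the Cpa3 cluster (-0.42, adjusted p = 0.428) completed the set.

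The 2 lists added as checks on cell state did hold calls. Of 15 proliferation genes, Ube2c (log2 difference -0.46, edgeR adjusted p = 0.000394) and Ccnb2 (-0.41, adjusted p = 0.0265) fell in the Cpa3 cluster and Rrm2 (-0.31, adjusted p = 0.00104) fell in GMP-like cells, 3 of 201 tests. Of 12 handling genes, Dusp1 fell in GMP-like cells (-0.76, adjusted p = 0.000163) and in the Cpa3 cluster (-0.59, adjusted p = 0.0265). Fos fell in the same classes (-0.42, adjusted p = 0.00242, and -0.44, adjusted p = 0.0360), and Hspa1a fell in dendritic-like cells (-1.21, adjusted p = 0.00276). With the rise of Fos in neutrophil-precursor-like cells, these were 5 falls and 1 rise in 162 tests, in classes where none of the 10 genes was called. Of these 9 calls, that of Dusp1 in GMP-like cells held under every alternative that gave it an adjusted p, and Ube2c lost its call in cells with a Xist UMI (adjusted p = 0.324) and with DESeq2 (adjusted p = 0.0650). Without Idh1-WT 1 the calls of Rrm2 (edgeR adjusted p = 0.0614), Ccnb2 (0.336) and both falls of Fos (0.158 in GMP-like cells and 0.647 in the Cpa3 cluster) were lost, and that of Dusp1 in the Cpa3 cluster (0.0505). Without Idh1-R132H 2 those of Ccnb2 (0.161), Dusp1 in the Cpa3 cluster (0.226), Hspa1a (0.0769) and the rise of Fos (0.625) were lost. DESeq2 called none of Ccnb2, Hspa1a, Dusp1 and Fos in the Cpa3 cluster or dendritic-like cells, nor the rise of Fos. With shared barcodes kept Ccnb2 (edgeR adjusted p = 0.104), Fos in the Cpa3 cluster (0.755) and its rise (0.112) were not called. A class per cell lost the calls of Hspa1a (0.997), Fos in GMP-like cells (0.353) and its rise (0.574). At most 5% mitochondrial UMIs lost Hspa1a (0.103) and Fos in the Cpa3 cluster (0.0642). With doublets kept, Fos was not called in the Cpa3 cluster (0.123), nor its rise (0.0557). The rise was also lost at resolution 2 (0.0632), with free RNA subtracted (0.0799) and in cells with a Xist UMI (0.997). Fos in neutrophil-precursor-like cells was at 0.90 without Idh1-WT 1 and at 0.07 in cells with a Xist UMI. Beyond the calls, 41 of the 162 handling gene tests were higher and 121 lower, against 97 and 104 for the proliferation genes. In stem-like and in GMP-like cells 11 of 12 handling genes were lower (medians -0.32 and -0.25), and in the Dntt cluster all 12 (-0.19). Neutrophil-like (2 of 9 lower) and neutrophil-precursor-like cells (2 of 10) went the other way. The cause of this lean was not tested.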

How the data were processed

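Each library's deposited matrix gives UMI counts, not normalized. Per the submitters' processing notes, the authors used Cell Ranger 4.0.0 with GRCm38 (mm10) and Seurat; the settings are not given in the sources used here. The labels name 3′ droplet chemistry with UMIs. A barcode was kept from 500 UMIs and 200 genes upward, if its mitochondrial share was no more than 10%. Cells whose barcode another library held with at least 10 times the UMIs were removed, a step chosen after seeing the data. The top doublet scores (Scrublet) were removed at 0.8% per 1000 cells: 139, 98, 118 and 157 cells, where Scrublet's automatic threshold would have taken 66, 31, 6 and 76.

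Clustering used scanpy 1.11.5 on 2000 variable genes without the 10 genes and the lists, 30 components, 15 neighbours and Leiden resolution 1, which gave 24 clusters. Clusters were named by marker scores; the limits on a name were set after seeing the clusters, and a cluster of 147 cells with a median of 656 UMIs stayed unnamed. B-precursor-like cells, with 17 and 16 cells in the Idh1-R132H libraries, had levels only. Counts were added up within each class of a library and tested with edgeR 4.0.16 (TMM, filterByExpr, quasi-likelihood) in R 4.3.3, Benjamini-Hochberg adjusted over all genes of the class. The fits were tested on simulated data made from the class means. Low counts limited the tests: Chac1 passed the filter in 0 classes, Trib3 in 1, Sesn2 in 5, Asns in 8 and Ddit3 in 11, while Psat1, Shmt2 and Mthfd2 passed in 12 and Atf4 and Phgdh in 15.

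Alternatives were other limits on UMIs and mitochondrial share, doublets kept, resolution 2, a class per cell, free RNA subtracted, cells with a Xist UMI and no Y-linked UMI, RLE factors, DESeq2 1.42.0, no filter, a replicate block, leaving out each library and keeping shared barcodes. The 10 genes, the lists and the tests were chosen with earlier results of these data known. Named genes are the 10 members, list genes with an adjusted p below 0.05, the 2 genes with the lowest p in each list, and the 5 genes most alike in pattern to the highest member of each pathway; genes named within finer clusters were chosen after their values were seen.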

Additional observations from a re-analysis of the deposited data

How the results depend on the processing

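The count of 0 members called in every class and in all cells summed held under all alternatives but these. In all cells, 1 member (Asns) was called with no filter on low counts (log2 difference -0.29, edgeR adjusted p = 0.0245), and 0 to 1 when a library was left out. In erythroid-like cells 0 to 1 (Asns) and in monocyte-like cells 0 to 1 (Psat1) were called when a library was left out. With an arm reduced to 1 library, that library is assumed to vary like the others. Of 1553 values of the 10 genes under alternatives, 167 differed in sign from the main value, and 4 were called. With a replicate block on the numbers of the labels, 0 members were called in any class or in all cells. Same-numbered libraries did not deviate together (correlation -0.07 to 0.06 over 16 fits), so they were taken to share only a number. However, both libraries numbered 1 shared 345 barcodes and, in stem-like cells, had the higher Xist shares. In GMP-like cells and most other classes the higher Xist shares were those of both Idh1-WT libraries. The adjusted p of Psat1 in monocyte-like cells was 0.0690 with the block and 0.0573 with shared barcodes kept. The class with the highest level was the same for all 10 genes with at least 1000 UMIs, for 9 with free RNA subtracted (Chac1: neutrophil-like), with shared barcodes kept (Phgdh: Cpa3 cluster) and at resolution 2 (Shmt2: monocyte-progenitor-like), and for 8 with a class per cell (Shmt2, and Phgdh in lymphoid-primed-like cells). Counts over all genes moved by more than 1.5 times: in all cells 36 became 25 to 212, or 66 to 145 without a library; in stem-like cells 7 became 4 to 67 or 19 to 211; in GMP-like cells 76 became 25 to 154 or 39 to 177. Monocyte-progenitor-like cells went from 23 calls to between 6 and 98, or 24 to 101, the Cpa3 cluster from 15 to between 1 and 46, or 23 to 75, and monocyte-like cells from 28 to between 5 and 58, or 21 to 45. Neutrophil-precursor-like cells went from 28 to between 6 and 33, or 14 to 32, and neutrophil-like cells from 16 to between 4 and 21, or 12 to 27. Megakaryocyte-like cells went from 8 to between 0 and 17, or 5 to 25. From 4 calls each, the range was 1 to 34 or 19 to 33 in the Dntt cluster, 0 to 53 or 10 to 25 in dendritic-like cells, 1 to 17 or 7 to 44 in erythroid-like cells and 0 to 5 or 3 to 25 in lymphoid-primed-like cells. From 0 calls it was 0 to 10 or 3 to 16 in basophil-like, 0 to 7 or 1 to 14 in B-like and 0 to 5 or 2 to 12 in T/NK-like cells. The causes of these shifts were not tested.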

Other observations

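Other genes of the pathways were also unevenly spread over the marrow classes; the genes given here were chosen after their values were seen, and the levels are class means with no test. Slc7a11, the cystine importer that ATF4 induces, was at 165 ± 32.1 CPM (SD, n = 4) in neutrophil-like cells and at 14.3 CPM in the next class. Trp53inp1, a p53 target, was highest in the same class, at 75.0 ± 20.6 CPM against 22.5 CPM in the next. Of the lists, 2 of 12 genes of the eIF2 list, 2 of 24 other ATF4 targets and partners and 1 of 10 p53 targets were highest there. The share of all genes that were highest in a class was not counted, so this count and those below have no background. The eIF2 list summed to 147 CPM in neutrophil-like cells, against 612 CPM in erythroid-like cells. The 2 of the eIF2 list were Ppp1r15b, an eIF2alpha phosphatase subunit (40.9 ± 15 CPM, next 28.2 CPM), and the eIF2alpha kinase gene Eif2ak3 (18.6 ± 5.92 CPM, next 15.1 CPM). Of the 12 handling genes, 7 were highest in neutrophil-like cells too, and their part in these levels was not tested. In monocyte-like cells Atf3, a transcription factor induced by stress and by handling, was at 14 ± 2.15 CPM, against 3.64 CPM in the next class, and Nupr1 at 156 ± 17.4 CPM, against 68.2 CPM.

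Erythroid-like cells, where Asns was highest, also had the highest mean level of 11 of 20 cytosolic aminoacyl-tRNA synthetases. The same held for 5 of 12 genes of the eIF2 list and 5 of 15 other serine and one-carbon genes with a UMI, again without a share over all genes. Mthfd1, the cytosolic folate enzyme, was at 121 ± 11.6 CPM (SD, n = 4) there, against 42.5 CPM in the next class. The synthetase gene Hars was at 98.6 ± 2.10 CPM against 72.6 CPM. Genes of the other arms of the unfolded protein response were distributed otherwise, with 8 of 17 highest in GMP-like cells, among them the chaperone Calr at 1796 ± 65.1 CPM, against 1567 CPM in the next class.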
